A study of Mus musculus with 12 samples.

Results

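Livers of mice with the kinase-dead RIPK1 D138N allele were compared with livers labelled TNFR1/2 KO, a line lacking both TNF receptors by its label. The comparison used 6 of the 12 RNA-seq libraries of a mouse liver study of ischemia, 3 of each genotype, chosen by genotype label alone, and every gene measured in them. The other 6 libraries, 3 WT and 3 Sham (also WT by genotype), entered the shared estimate of spread and were used to place levels. Only the Sham libraries are labelled as sham, and the series title was read to mean that the other 9 came from ischemic livers. The labels give the tissue as liver and state no time after ischemia, strain, age, sex, zygosity or breeding scheme. Whether replicates came from different mice is not stated either, so p-values measure only the spread between these samples. No sham library of either mutant was analysed here, so a difference between the genotypes at baseline and a difference in their response to ischemia cannot be told apart.

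RIPK1 is a protein kinase with a death domain that is recruited to TNF receptor 1 when TNF binds. As a scaffold modified with ubiquitin chains it helps activate NF-kB, which drives inflammatory and survival genes. Its kinase activity is needed for necroptosis and for one form of apoptosis, and the D138N substitution in the catalytic site removes that activity while leaving the protein in place. Loss of TNF receptors 1 and 2 removes the TNF input altogether, so the genotypes share the loss of one death route and differ in whether TNF can still signal through the scaffold. In the liver, TNF is released by resident macrophages (Kupffer cells) after ischemia, and it can act on hepatocytes, endothelial cells and stellate cells.

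In the 6 libraries the summed FPKM (fragments per kilobase of transcript scaled to depth, the deposited unit) was 441300 to 518600, and 10135 to 10558 genes reached 1 FPKM. The sums were 288900 to 303500 in the WT libraries and 649400 to 750500 in the Sham libraries. Levels set beside WT and Sham below were not adjusted for this. The targeted genes did not separate the labels. Tnfrsf1a, encoding TNF receptor 1, was at 18.9, 20.98 and 19.4 FPKM in RIPK1 D138N replicates 1 to 3 and at 15.3, 21.9 and 18.4 FPKM in the TNFR1/2 KO libraries. Tnfrsf1b, encoding TNF receptor 2, was at 5.48, 6.04 and 5.04 against 7.22, 3.96 and 9.31 FPKM, and Ripk1 itself at 3.52, 3.89 and 3.03 against 4.03, 3.61 and 4.18 FPKM. The groups overlapped for the 3 genes (limma adjusted p = 0.897, 0.856 and 0.856). One value per gene cannot show a partial deletion, and the level of Ripk1 does not check a point mutation, so the knockout libraries are called by their label throughout.

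The RIPK1 D138N libraries were not alike. Xist, the RNA that coats the inactive X chromosome, was at 0.0215 FPKM in replicate 1 but at 20.1 and 23.4 FPKM in replicates 2 and 3, against 0.00517 to 0.0824 FPKM in the TNFR1/2 KO libraries. Ddx3y, a Y-linked helicase gene, showed the opposite order, with 21.02 FPKM in replicate 1, 0.0176 and 0 FPKM in replicates 2 and 3, and 14.1 to 15.9 FPKM in TNFR1/2 KO. Replicate 1 was therefore the only library of its group with the Xist and Ddx3y pattern of the knockouts. Across the tested genes, replicate 1 correlated at 0.973, 0.974 and 0.964 with TNFR1/2 KO replicates 1 to 3, and at 0.951 and 0.960 with replicates 2 and 3 of its own group (Pearson, log2 scale, across genes, which are not independent replicates). In replicates 2 and 3 genotype and the Xist-positive state cannot be told apart. A difference was accordingly reported as one of genotype only where it also held in replicate 1. The sizes given below average all 3 replicates, so they are not sizes of a genotype difference alone.

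Of 11694 genes tested, 98 (0.838%) differed between RIPK1 D138N and TNFR1/2 KO at a limma adjusted p under 0.05, 31 higher and 67 lower in RIPK1 D138N. Differences are on the log2(FPKM + 1) scale, which understates those of low genes. A difference was taken to hold in replicate 1 when that library lay outside the range of the 3 TNFR1/2 KO libraries on the same side, at 0.5 times the group difference or more. By this rule 88 of the 98 held, 27 higher (0.231% of the genes tested) and 61 lower (0.522%), and 10 did not (0.0855%). In all 88 the 3 RIPK1 D138N libraries did not overlap the 3 knockout libraries, which the selection nearly fixes and from which nothing is read (17.1% of all genes tested did not overlap). Because replicate 1 is part of the group mean, holding is a filter on the calls and not a second test. The log2 differences, SEs and p-values of held genes include replicates 2 and 3. In replicate 1 taken singly, some log2 differences were smaller, as for Aox3 (-1.12 against -1.71), Angptl6 (0.84 against 1.33) and Lrat (0.66 against 1.30). Others were larger, as for Nnmt (2.75 against 2.27) and Cd1d2 (-2.32 against -2.08). A fit without replicate 1 also called all 88, while a fit with replicate 1 as the only RIPK1 D138N library, which called 25 genes (0.214%), called 9 of them. The calls also rested on other single libraries: without RIPK1 D138N replicate 2, RIPK1 D138N replicate 3, TNFR1/2 KO replicate 2 or TNFR1/2 KO replicate 3, the held genes numbered 6, 6, 10 and 6 higher and 12, 10, 27 and 15 lower. Whichever of the 6 libraries was left out, 14 of the 88 were called, among them Mme, Acot1, Nnmt, Ly6a, Asic5, Rsad2, Hsd3b2, Tymp and Ugt1a6a. A fit on the 6 mutant libraries alone called 8 of the 88, Acot1, Asic5, Cd1d2, Gm37784, Rps3a3, Rsad2, Tymp and Dbp, and so not Mme, Nnmt, Ly6a, Hsd3b2, Ugt1a6a or the stellate cell markers described below. The excess of lower genes depended on scaling: with median-of-ratios scaling, 44 genes were higher and 42 lower, against 41 and 68 as deposited, counting the genes set aside next.

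**Figure D1:**
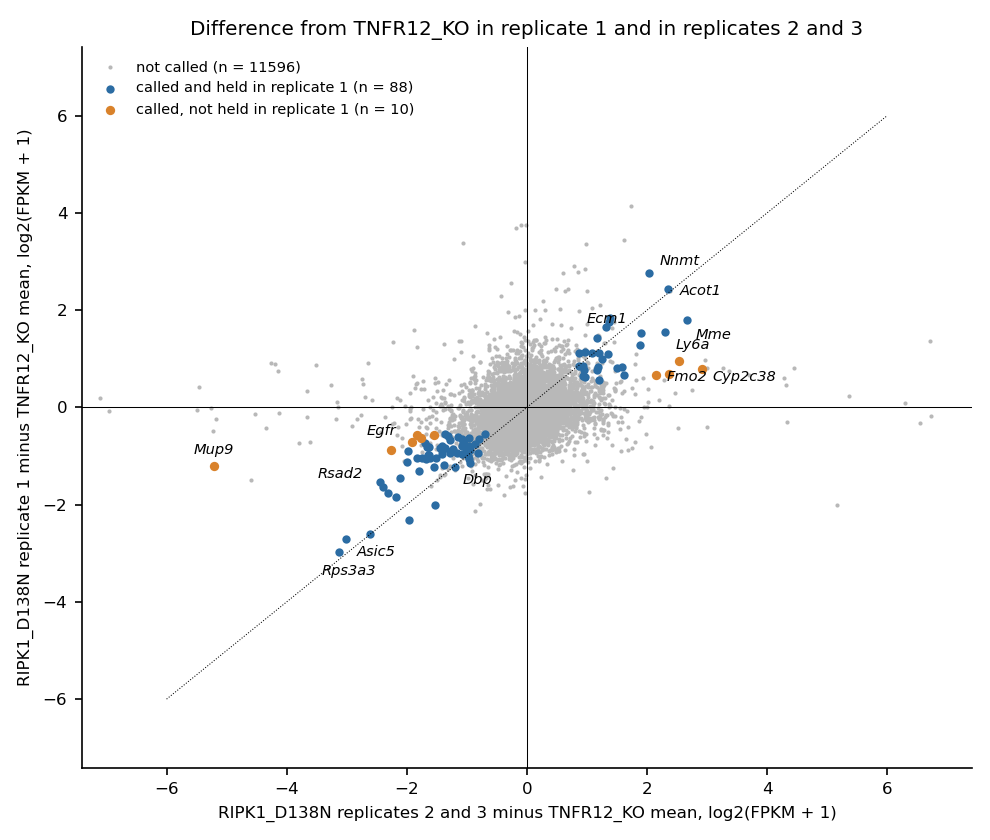
Each point is a gene, with the mean log2 difference of RIPK1 D138N replicates 2 and 3 from the TNFR1/2 KO mean on the x axis and the log2 difference of replicate 1 on the y axis, both on the log2(FPKM + 1) scale. The 88 genes that held lie away from 0 on both axes, and the 10 that did not lie nearer to 0 on the y axis than on the x axis.

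A further 11 called genes were set aside because they were listed at exactly 0 in at least 1 of the 6 libraries while reaching 10 FPKM in another, which can be a failed estimate. Counting them, 109 of 11728 genes were called (0.929%), 41 higher (0.350%) and 68 lower (0.580%). Of these, 10 were listed at 0 in every TNFR1/2 KO library and at 2.47 FPKM or more in RIPK1 D138N, most of them major urinary protein and Serpina1 genes, families of near-identical copies. mt-Cytb, a mitochondrially encoded respiratory subunit, was one of them, with 6297, 8472 and 9553 FPKM in RIPK1 D138N. Hist1h2al was the only one that was lower, at 1.02, 0.639 and 0 FPKM against 33.7, 57.2 and 87.7 FPKM. No fold is given for a gene listed at 0.

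Enzymes of lipid and nicotinamide metabolism were among the largest differences toward RIPK1 D138N. Nnmt (chr9:48591877-48605153, mm10), the methyltransferase that consumes nicotinamide and S-adenosylmethionine, was at 289, 171 and 179.7 FPKM in RIPK1 D138N replicates 1 to 3. In TNFR1/2 KO it was at 45.2, 59.0 and 27.8 FPKM, so that every RIPK1 D138N library exceeded every knockout library (log2 difference 2.27, SE 0.286, limma adjusted p = 0.0019). Both mutants lay between the extremes of the other groups, since Nnmt was at 6.46 to 10.3 FPKM in WT and 1329 to 1865 FPKM in Sham. Acot1 (chr12:84009490-84018371), a cytosolic thioesterase that releases fatty acids from acyl-CoA and a target of the receptor PPARA, was at 49.7, 33.8 and 64.1 FPKM against 11.4, 9.36 and 5.44 FPKM. The RIPK1 D138N libraries all lay above the knockouts (log2 difference 2.37, SE 0.335, limma adjusted p = 0.00491), and replicate 1 lay between replicates 2 and 3. Acot1 has close paralogs at the same locus, and fragments may be shared among them.

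Mme (chr3:63241537-63386030), the cell-surface peptidase neprilysin, was at 3.68, 7.64 and 7.63 FPKM against 0.110, 1.12 and 0.0574 FPKM. It was the gene with the largest positive log2 difference among those that held (2.38, SE 0.282, limma adjusted p = 0.00116), and it was near 0 in 2 of the 3 knockout libraries. Pltp (chr2:164839518-164857711), a plasma protein that transfers phospholipids between lipoproteins, was at 17.9, 33.2 and 23.3 FPKM against 5.11, 10.2 and 6.003 FPKM (log2 difference 1.68, SE 0.255, limma adjusted p = 0.00856). Angptl6, a secreted angiopoietin-like protein, was at 10.3, 16.1 and 19.7 FPKM against 5.96, 4.19 and 5.97 FPKM (log2 difference 1.33, SE 0.224, limma adjusted p = 0.0166). For Pltp and Angptl6 the groups did not overlap, and for Angptl6 replicate 1 was the lowest of its group.

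Nnt (chr13:119335448-119408997), the mitochondrial transhydrogenase that makes NADPH, was at 9.30, 9.83 and 12.8 FPKM in RIPK1 D138N and 4.64, 3.39 and 3.48 FPKM in TNFR1/2 KO (log2 difference 1.26, SE 0.239, limma adjusted p = 0.0304). WT libraries were at 0.637 to 0.975 FPKM, below all 6 mutant libraries, and Sham libraries at 4.29 to 9.38 FPKM. Nnt is known to be deleted in part in one widely used substrain of C57BL/6 mice, and the labels give no strain. Ly6a, a membrane-anchored antigen of endothelial and blood stem cells, was at 10.1, 17 and 18.7 FPKM against 3.73, 1.80 and 3.19 FPKM (log2 difference 2.05, SE 0.297, limma adjusted p = 0.00596). The groups did not overlap for either gene. Rdh16, a retinol dehydrogenase, Pfkfb1, the liver enzyme that sets fructose-2,6-bisphosphate, and Rcan2, a calcineurin regulator, were also higher and held, with log2 differences of 1.03, 0.89 and 0.99 (limma adjusted p = 0.0478, 0.046 and 0.0352).

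**Figure D2:**
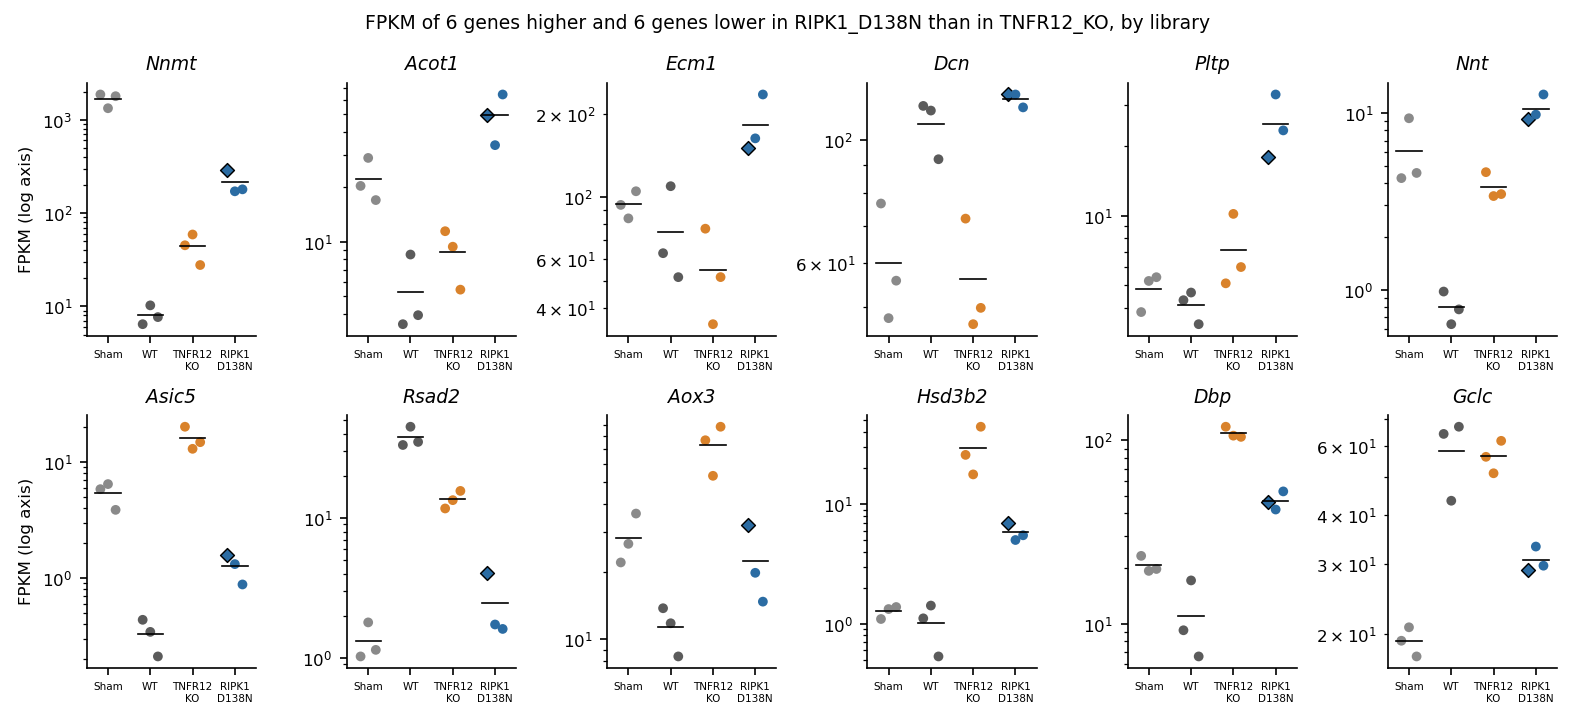
FPKM on a log axis in every library for 6 genes higher (top row) and 6 lower (bottom row) in RIPK1 D138N than in TNFR1/2 KO (marked TNFR12 KO), with a bar at the group mean and a black-edged diamond for RIPK1 D138N replicate 1. In each panel the 3 RIPK1 D138N libraries lie on one side of the 3 TNFR1/2 KO libraries, as for Nnmt at 171 to 289 against 27.8 to 59.0 FPKM.

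Markers of hepatic stellate cells and fibroblasts, the retinoid-storing and matrix-forming cells beside the sinusoids, lay mostly above 0. Of 14 tested, 4 passed the test, all higher and all holding in replicate 1, against 0.838% of all genes. A further 4 were higher at an unadjusted p under 0.05 only, so that 8 of 14 stood higher at that level against 4.51% of all genes, and 12 of 14 lay above 0 against 41.5%. The median log2 difference was 0.71, against -0.05 over all genes tested, and 0.46, 0.78 and 0.98 for replicates 1, 2 and 3 taken singly. Ecm1 (chr3:95734147-95739569), a secreted matrix protein, was at 151, 163 and 234 FPKM against 77.1, 34.9 and 51.6 FPKM (log2 difference 1.77, SE 0.310, limma adjusted p = 0.0199). The lowest RIPK1 D138N library, replicate 1, was well above the highest knockout library. Dcn (chr10), encoding the proteoglycan decorin, was at 120.7, 120.7 and 114 FPKM against 72.0, 46.5 and 49.7 FPKM (log2 difference 1.09, SE 0.209, limma adjusted p = 0.0319). Its 3 RIPK1 D138N libraries were nearly equal. Rgs5, a regulator of G protein signaling in pericytes, was likewise even within the group, at 8.13, 8.46 and 9.05 FPKM against 4.17, 2.63 and 3.03 FPKM (log2 difference 1.17, SE 0.220, limma adjusted p = 0.0284). Lrat, which esterifies retinol for storage, was at 1.65, 4.12 and 4.14 FPKM against 1.27, 0.367 and 0.508 FPKM (log2 difference 1.30, SE 0.255, limma adjusted p = 0.0352). For Lrat, replicate 1 was much nearer to the knockouts than the other 2 were.

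The type I collagen genes of the list stood apart from these. Col1a1 had a log2 difference of -0.21 and Col1a2 of 0.04, with limma adjusted p = 0.870 and 0.980, and the groups overlapped for both. Outside the list, Serpinh1, the collagen chaperone, was at 6.86, 11.8 and 11.7 FPKM against 3.67, 2.70 and 4.22 FPKM (log2 difference 1.27, SE 0.222, limma adjusted p = 0.0192). Mgp, an inhibitor of calcification made by vascular and matrix cells, was at 12.3, 7.39 and 11.3 FPKM against 1.97, 5.04 and 2.44 FPKM (log2 difference 1.49, SE 0.301, limma adjusted p = 0.0407). Neither gene overlapped between the groups. In bulk tissue, fewer cells of a type and less RNA per cell cannot be told apart.

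Other cell type markers were set beside this list. The summed FPKM of the stellate and fibroblast markers was 336, 378 and 451 in RIPK1 D138N and 202, 118 and 150 in TNFR1/2 KO. The sums did not overlap, as was so for 17.1% of single genes tested. Ecm1 and Dcn, called above, made up most of the sum in replicate 1, at 151 and 120.7 of 336 FPKM. The sums therefore largely repeat those calls. For sinusoidal endothelial markers, 11 of 12 lay above 0 (against 41.5% of all genes) with the same median of 0.71. None of these markers passed the test (limma), and 1 was higher at an unadjusted p under 0.05 (against 4.51%). Their sums were 29.3, 169 and 115 against 85.9, 17.4 and 58.8 FPKM, so replicate 1 fell among the knockouts, and its own median log2 difference was -0.59 against 1.44 and 1.05 for replicates 2 and 3. Clec4g, a sinusoidal lectin and the most abundant of them, was at 6.73, 55.4 and 34.4 against 21.6, 3.504 and 13.1 FPKM. Hepatocyte markers moved little, with 10 tested, none called (limma, and 0 at an unadjusted p under 0.05) and a median of -0.06, although Alb is listed at 0 in every library. Whether other cell types had a part in the higher stellate markers was not tested.

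**Figure D3:**
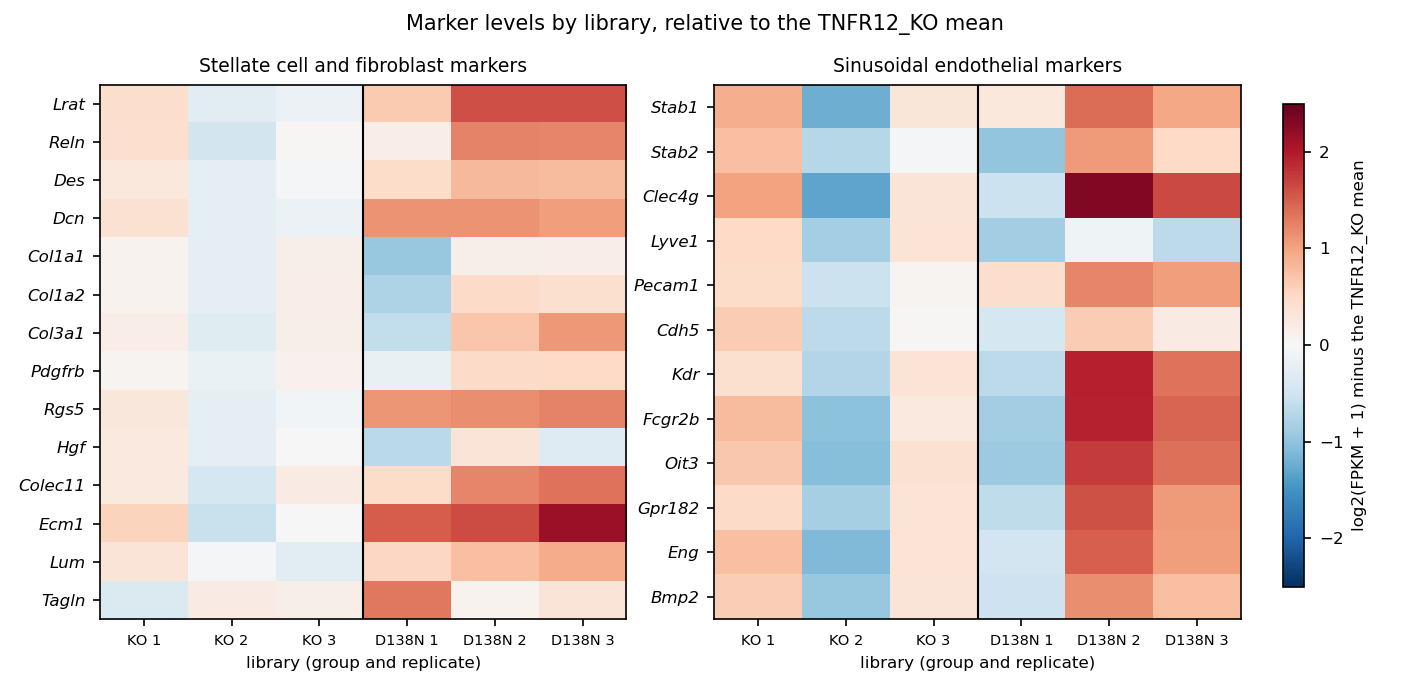
Marker levels in each of the 6 mutant libraries as log2 differences from the TNFR1/2 KO mean, with a gene in each row, a library in each column and colour for the difference, for stellate cell and fibroblast markers and for sinusoidal endothelial markers. The stellate markers Ecm1, Dcn and Rgs5 are higher in all 3 RIPK1 D138N libraries, whereas most endothelial markers are higher in replicates 2 and 3 and lower in replicate 1.

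Lower genes that held included several liver enzymes. Hsd3b2 (chr3:98709255-98724543), a steroid dehydrogenase, was at 6.88, 5.01 and 5.48 FPKM in RIPK1 D138N and 25.8, 17.7 and 44.3 FPKM in TNFR1/2 KO (log2 difference -2.07, SE 0.275, limma adjusted p = 0.00328). The highest mutant library was below the lowest knockout library, and WT and Sham libraries were lower still, at 0.532 to 1.42 FPKM. Aox3 (chr1:58113130-58200698), an aldehyde oxidase that also oxidises methylated nicotinamide, was at 32.1, 19.8 and 14.7 FPKM against 76.7, 53.3 and 88.1 FPKM (log2 difference -1.71, SE 0.291, limma adjusted p = 0.0179). With Nnmt it was 1 of 2 members called among 33 genes of methionine and nicotinamide metabolism, against 0.838% of all genes, and the median log2 difference of the list was 0.04. The product of Nnmt is a substrate of aldehyde oxidases, and these genes differed in opposite directions. Ugt1a6a (chr1:88134809-88218997), a glucuronosyltransferase, was at 9.85, 7.62 and 4.51 FPKM against 22.8, 37.6 and 27.9 FPKM (log2 difference -1.90, SE 0.255, limma adjusted p = 0.00335). Ugt1a10, which shares its 3′ exons with Ugt1a6a, differed the other way, at 4.58, 1.88 and 4.72 FPKM against 0.373, 0.662 and 0.638 FPKM (log2 difference 1.54, SE 0.274, limma adjusted p = 0.0222). Neither overlapped between the groups, but the split of fragments between overlapping transcripts is uncertain.

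Among the other lower genes, Apoa4 (chr9:46240696-46243459), an apolipoprotein of triglyceride-rich particles, was at 101, 72.2 and 70.1 FPKM against 173, 312 and 290 FPKM (log2 difference -1.63, SE 0.253, limma adjusted p = 0.01). Tymp, thymidine phosphorylase, was at 1.61, 2.53 and 2.68 FPKM against 8.60, 10.7 and 9.13 FPKM (log2 difference -1.69, SE 0.232, limma adjusted p = 0.00388). For Tymp replicate 1 was the lowest of its group, so the difference was largest there. Lrrc8d, a subunit of volume-regulated anion channels, was at 8.66, 4.40 and 4.69 FPKM against 19.9, 25.1 and 13.2 FPKM (log2 difference -1.57, SE 0.269, limma adjusted p = 0.0183). Gclc, the catalytic subunit of the enzyme that limits glutathione synthesis, was at 29.0, 33.3 and 29.7 FPKM against 56.2, 51.0 and 61.7 FPKM (log2 difference -0.85, SE 0.178, limma adjusted p = 0.046). Its 3 RIPK1 D138N libraries were close together and clear of the knockouts. Tgfbr2, a TGF-beta receptor subunit, F2r, the thrombin receptor, and Adora1, an adenosine receptor, had log2 differences of -1.09, -0.99 and -1.22 (limma adjusted p = 0.046, 0.0284 and 0.0367). Also lower were Cdh1 (E-cadherin, -1.01), the metal transporter Slc39a14 (-1.10), the heme-responsive repressor Bach1 (-1.08) and the peroxisomal protease Lonp2 (-0.65), with limma adjusted p = 0.0334, 0.0284, 0.0475 and 0.0478.

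Asic5 (chr3:81982290-82021233), a bile acid-sensitive ion channel, had the most negative difference of the held genes after Rps3a3, annotated as a processed pseudogene (log2 difference -3.08). It was at 1.57, 1.32 and 0.879 FPKM in RIPK1 D138N, 20.2, 13.0 and 14.9 FPKM in TNFR1/2 KO, 3.87 to 6.46 FPKM in Sham and 0.210 to 0.435 FPKM in WT (log2 difference -2.91, SE 0.209, limma adjusted p = 5.27e-06). The knockout libraries thus lay above every library of the other 3 groups. Clec2h (chr6:128662385-128677374), a lectin-like membrane protein, was at 2.78, 1.002 and 1.45 FPKM against 15.9, 8.63 and 8.76 FPKM (log2 difference -2.14, SE 0.257, limma adjusted p = 0.00124). Cd1d2 (chr3:86986551-86989780, annotated as a polymorphic pseudogene), a lipid-presenting molecule with the close paralog Cd1d1, was at 0.860, 1.25 and 1.53 FPKM against 6.02, 8.53 and 11.1 FPKM (log2 difference -2.08, SE 0.195, limma adjusted p = 9.26e-05). For Clec2h and Cd1d2 too, the 3 TNFR1/2 KO libraries were above all 9 others, with WT and Sham at no more than 2.64 FPKM. Fam213b, a thioredoxin-like reductase, was at 18.5, 9.20 and 15 FPKM against 35.2, 63.1 and 28.6 FPKM (log2 difference -1.48, SE 0.292, limma adjusted p = 0.0358).

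An engineered allele is bred together with a linked segment of its chromosome, and the calls within 10 Mb of the targeted genes were counted. Around Tnfrsf1a (chr6:125349362-125362484), 3 of 136 tested genes were called (2.21%, against 0.838% of all genes), namely Plekhg6, Clec2h and Gm7298. Plekhg6 lies directly beside Tnfrsf1a, at chr6:125362660-125380793. It was at 1.16, 1.001 and 1.01 FPKM against 2.25, 3.43 and 3.66 FPKM (log2 difference -0.98, SE 0.192, limma adjusted p = 0.0352). Around Tnfrsf1b (chr4:145213463-145246870), 3 of 158 were called (1.9%), Fam213b, Iffo2 and Klhdc7a, and around Ripk1 (chr13:34002363-34037147), 1 of 67 (1.49%), Foxq1. All 7 were lower in RIPK1 D138N and held in replicate 1. Of the 98 genes called in all, 61 were lower and held. The part of linked segments in these differences was not tested.

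Interferon-stimulated genes encode antiviral effectors, GTPases and sensors that are switched on through a response element in their promoters, searched here as GAAA, any 2 bases and GAAA. Of 56 tested, 1 passed the test (limma), Rsad2, and the list as a whole stood near the background, with 3 higher and 5 lower at an unadjusted p under 0.05 (4.51% and 7.69% of all genes), 21 above and 35 below 0, and a median of -0.12. Rsad2 (chr12:26442746-26456452), encoding the antiviral enzyme viperin, was at 4.02, 1.73 and 1.61 FPKM in RIPK1 D138N replicates 1 to 3 and 11.7, 13.4 and 15.6 FPKM in TNFR1/2 KO. It was lower in every RIPK1 D138N library (log2 difference -2.14, SE 0.245, limma adjusted p = 0.000846). WT libraries were at 33.3 to 45.0 FPKM, above all 6 mutant libraries, and Sham libraries at 1.02 to 1.79 FPKM, a range that takes in RIPK1 D138N replicates 2 and 3. Isg15, a ubiquitin-like modifier, was at 18.4, 13.7 and 19.3 FPKM against 23.1, 28.1 and 26.8 FPKM (log2 difference -0.59, limma adjusted p = 0.269). Ifit3, which binds foreign RNA with its relatives, was at 5.22, 6.81 and 5.92 FPKM against 9.49, 7.54 and 9.45 FPKM (log2 difference -0.49, limma adjusted p = 0.193). Igtp, an interferon-gamma-induced GTPase, lay the other way, at 15.9, 23.9 and 27.3 FPKM against 14.9, 11.9 and 14.3 FPKM (log2 difference 0.64, limma adjusted p = 0.283). Isg15, Ifit3 and Igtp were picked after their values were seen, and none of the 3 passed the test. Their groups did not overlap, as was so for 17.1% of all genes tested.

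The 250 bases upstream of the start of these 4 genes are shown because they differ in how many copies of the element they hold while the genes differ in direction. They are from the RefSeq promoter table of build GRCm38.p6, at chr12:26456453-26456702 (Rsad2, minus strand), chr4:156200819-156201068 (Isg15, minus strand), chr19:34583279-34583528 (Ifit3, plus strand) and chr11:58199306-58199555 (Igtp, plus strand). Sequences run 5′ to 3′ on the gene's strand, and capitals mark matches to this element on either strand, with overlapping matches joined.
Rsad2: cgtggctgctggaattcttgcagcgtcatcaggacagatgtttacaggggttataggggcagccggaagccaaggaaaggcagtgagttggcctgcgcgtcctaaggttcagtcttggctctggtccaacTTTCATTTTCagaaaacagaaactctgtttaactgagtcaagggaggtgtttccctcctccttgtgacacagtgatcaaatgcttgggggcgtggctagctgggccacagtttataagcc
Isg15: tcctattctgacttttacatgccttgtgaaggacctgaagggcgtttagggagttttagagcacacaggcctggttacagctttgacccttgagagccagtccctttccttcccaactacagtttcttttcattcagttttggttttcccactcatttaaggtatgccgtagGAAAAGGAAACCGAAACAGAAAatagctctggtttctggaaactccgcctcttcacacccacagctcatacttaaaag
Ifit3: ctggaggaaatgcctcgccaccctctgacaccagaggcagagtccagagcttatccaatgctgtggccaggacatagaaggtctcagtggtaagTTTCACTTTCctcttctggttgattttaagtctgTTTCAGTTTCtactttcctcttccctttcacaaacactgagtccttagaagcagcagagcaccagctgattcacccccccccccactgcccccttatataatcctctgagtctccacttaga
Igtp: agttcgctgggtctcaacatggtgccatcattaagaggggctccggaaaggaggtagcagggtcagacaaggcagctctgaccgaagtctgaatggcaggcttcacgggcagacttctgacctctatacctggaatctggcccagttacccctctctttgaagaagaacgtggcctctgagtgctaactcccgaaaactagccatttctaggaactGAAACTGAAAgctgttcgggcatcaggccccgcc
By this search Rsad2 had 1 match, Isg15 3, Ifit3 2 and Igtp 1. A match occurred in the upstream window of 936 of 27025 genes (3.46%) and of 23 of the 47 listed interferon-stimulated genes with a RefSeq window (48.9%). A match describes these letters only. Rsad2, with 1 match, had the only called difference of these 4 genes, and Igtp, also with 1 match, lay on the other side of 0.

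The immediate early genes, transcription factors and phosphatases induced within minutes of stress, lay below 0 almost throughout. Of 26 tested, 25 were below 0 against 58.5% of all genes, 12 were lower at an unadjusted p under 0.05 against 7.69% of all genes, and 1, Dusp5, passed the test (limma). The median log2 difference was -0.63, and it was alike in the RIPK1 D138N replicates taken singly, at -0.60, -0.73 and -0.61. Dusp5 (chr19:53529109-53542431), a nuclear phosphatase of ERK kinases, was at 2.29, 0.599 and 1.10 FPKM against 3.84, 5.02 and 5.51 FPKM (log2 difference -1.37, SE 0.284, limma adjusted p = 0.046). WT libraries were at 7.94 to 16.5 FPKM and Sham libraries at 0.110 to 0.221 FPKM, so Dusp5 in RIPK1 D138N was the nearer of the mutants to Sham. Fos, an AP-1 subunit, was at 42.8, 57.4 and 58.2 FPKM against 76.2, 72.7 and 102 FPKM (log2 difference -0.65, limma adjusted p = 0.163), with no overlap. Nr4a1, an orphan nuclear receptor, was at 6.61, 7.85 and 8.85 FPKM against 14.1, 10.8 and 15.6 FPKM (log2 difference -0.72, limma adjusted p = 0.0984). For Myc the values were 15.4, 13.4 and 11.7 FPKM against 16.99, 30.1 and 35.1 FPKM (log2 difference -0.92, limma adjusted p = 0.103). Atf3, induced by the integrated stress response, overlapped, at 118, 59.9 and 57.3 FPKM against 75.3, 94.3 and 98.0 FPKM (log2 difference -0.25, limma adjusted p = 0.806). Ctgf, a matrix-associated growth factor, was the exception above 0, at 4.12, 4.07 and 3.59 FPKM against 1.56, 2.52 and 1.47 FPKM (log2 difference 0.81, limma adjusted p = 0.0775). These 5 genes were singled out after their values were seen and did not pass the test.

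NF-kB target genes and the TNF pathway itself gave no call (limma, 0 of 23 and 0 of 39 genes). Among NF-kB targets, 19 of 23 lay below 0, against 58.5% of all genes, 8 were lower and 1 higher at an unadjusted p under 0.05, against 7.69% and 4.51%, and the median was -0.49. Here replicate 1 differed from the others, with a median of -0.07 against -0.66 and -0.62 in replicates 2 and 3. Cxcl1, a neutrophil-attracting chemokine and the most abundant of the list, was at 310, 85.2 and 86.7 FPKM in RIPK1 D138N and 184, 348 and 168 FPKM in TNFR1/2 KO (log2 difference -0.74, limma adjusted p = 0.570). Replicate 1 was within the knockout range and the other 2 were below it. Gadd45b, a stress-induced regulator of kinase signaling, showed the same order, at 70.4, 33.2 and 39.4 FPKM against 55.3, 72.8 and 66.8 FPKM (log2 difference -0.50, limma adjusted p = 0.614). Nfkbia, the NF-kB inhibitor that the factor itself induces, was at 136, 86.5 and 107 FPKM against 98.8, 172 and 141 FPKM (log2 difference -0.31, limma adjusted p = 0.660), with replicates 1 and 3 inside the knockout range. The 9 inhibitors and subunits all lay below 0, with a median of -0.52 and 5 lower at an unadjusted p under 0.05.

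In the TNF and RIPK1 pathway, 31 of 39 genes lay below 0, 8 were lower and 0 higher at an unadjusted p under 0.05 (against the same shares of all genes), and the median was -0.21. By role, the median was -0.18 for 6 receptors, -0.22 for 14 adaptors and kinases, -0.23 for 10 members of the ubiquitin machinery and -0.10 for 8 death effectors and brakes. Ltbr, the lymphotoxin-beta receptor, was at 23.4, 21.3 and 21.8 FPKM against 27.4, 33.4 and 32.2 FPKM (log2 difference -0.46, limma adjusted p = 0.180). Its groups did not overlap, whereas those of Sharpin, a subunit of the linear ubiquitin ligase, did, at 23.01, 24.2 and 21.2 FPKM against 28.5, 16.2 and 19.5 FPKM (log2 difference 0.12, limma adjusted p = 0.906). Chuk, the kinase IKK-alpha, was at 26.4, 22.2 and 21.7 FPKM against 27.4, 28.9 and 30.7 FPKM (log2 difference -0.30, limma adjusted p = 0.473). Tnfaip3, encoding the ubiquitin-editing brake A20, was at 3.80, 1.90 and 2.496 FPKM against 5.19, 8.34 and 5.22 FPKM (log2 difference -0.96, limma adjusted p = 0.119). It was chosen after its values were seen, as the member of the pathway with the most negative difference.

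**Figure D4:**
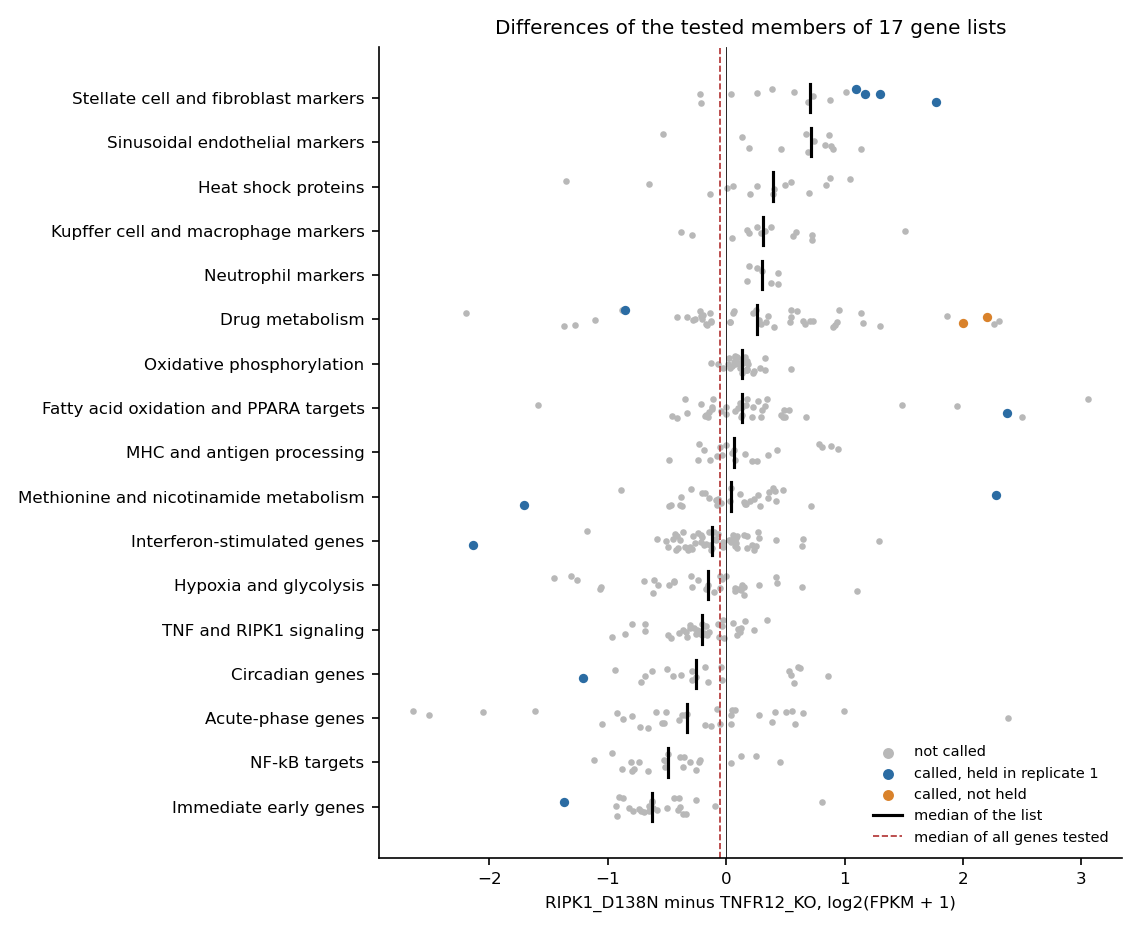
Log2 difference between RIPK1 D138N and TNFR1/2 KO (x axis) for every tested member of 17 gene lists (rows), with a black bar at the median of the list, a dashed line at the median of all genes tested, and colour for called genes. Immediate early genes (median -0.63) and NF-kB targets (median -0.49) lie mostly left of 0, and stellate and fibroblast markers (median 0.71) mostly right of it.

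Circadian genes form a feedback loop in which the Per and Cry proteins repress their own activators and which drives output factors such as Dbp. Of 21 tested, 1 passed the test (limma), against 0.838% of all genes. At an unadjusted p under 0.05, 5 were higher and 6 lower, against 4.51% and 7.69%, and the median was -0.25. Dbp (chr7:45705088-45710203), a transcription factor of the clock output, was at 46.2, 41.9 and 52.7 FPKM in RIPK1 D138N and 119, 106 and 104.5 FPKM in TNFR1/2 KO (log2 difference -1.21, SE 0.253, limma adjusted p = 0.046). The groups were well apart, and Sham, at 19.4 to 23.4 FPKM, and WT, at 6.62 to 17.2 FPKM, were lower than both. Nr1d1, the repressor REV-ERB-alpha, was at 6.003, 11.9 and 10.2 FPKM against 17.7, 14.1 and 24.0 FPKM (log2 difference -0.94, limma adjusted p = 0.115). Per1, a repressor of the loop, was at 6.01, 8.12 and 6.89 FPKM against 11.03, 9.54 and 16.9 FPKM (log2 difference -0.72, limma adjusted p = 0.287), and Ciart, another repressor, at 5.36, 9.19 and 9.76 FPKM against 11.3, 10.9 and 18.8 FPKM (log2 difference -0.69, limma adjusted p = 0.337). The groups did not overlap for Nr1d1, Per1 or Ciart, as for 17.1% of all genes tested, and these genes did not pass the test. Cry1, a repressor that normally peaks later than these genes, was on the other side, at 2.37, 5.02 and 5.19 FPKM against 1.67, 2.37 and 1.35 FPKM (log2 difference 0.86, limma adjusted p = 0.115). Its replicate 1 was level with the highest knockout. Nr1d1, Per1, Ciart and Cry1 were chosen after their values were seen. No source used here gives the time of day of tissue collection.

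The upstream 250 bases of Per1, Ciart and Cry1 are shown since each holds the E-box CACGTG, the element bound by the activators of the loop, while Cry1 lay opposite to Per1 and Ciart. They are from the same RefSeq table, at chr11:69098699-69098948 (Per1, plus strand), chr3:95882229-95882478 (Ciart, minus strand) and chr10:85185055-85185304 (Cry1, minus strand), with capitals marking CACGTG, which reads the same on both strands.
Per1: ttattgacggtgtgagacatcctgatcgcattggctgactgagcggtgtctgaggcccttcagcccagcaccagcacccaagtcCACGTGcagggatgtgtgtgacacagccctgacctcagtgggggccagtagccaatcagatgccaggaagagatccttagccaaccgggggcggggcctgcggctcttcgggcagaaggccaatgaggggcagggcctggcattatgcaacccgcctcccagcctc
Ciart: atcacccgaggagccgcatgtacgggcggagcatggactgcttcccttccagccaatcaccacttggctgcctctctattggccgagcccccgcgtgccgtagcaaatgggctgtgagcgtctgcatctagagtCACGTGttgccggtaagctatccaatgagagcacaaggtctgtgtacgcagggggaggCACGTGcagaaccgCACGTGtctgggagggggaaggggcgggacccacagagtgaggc
Cry1: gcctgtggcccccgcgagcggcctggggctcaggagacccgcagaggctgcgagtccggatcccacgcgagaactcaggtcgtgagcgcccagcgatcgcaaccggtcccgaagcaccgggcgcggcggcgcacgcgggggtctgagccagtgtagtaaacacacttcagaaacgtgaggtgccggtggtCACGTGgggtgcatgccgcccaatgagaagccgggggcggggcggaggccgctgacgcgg
Ciart had 3 matches and Per1 and Cry1 had 1 each. The E-box was found in 1854 of 27025 upstream windows (6.86%) and in those of 6 of the 20 circadian genes with a window (30%). Dbp, the one called gene, had no match in its window, which says only that these letters are not there.

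For fatty acid oxidation and PPARA targets, 1 of 42 passed the test, Acot1 (against 0.838% of all genes), with 7 higher and 1 lower at an unadjusted p under 0.05 (against 4.51% and 7.69%) and a median of 0.13. All 7 higher genes were among the 22 peroxisomal, microsomal or regulatory members, whose median was 0.40, and the 20 mitochondrial or ketogenic members had a median of 0.13. Cyp4a10 and Cyp4a14, microsomal fatty acid hydroxylases, were at 40.7 and 40.9 FPKM in replicate 1, inside the knockout ranges of 17.1 to 48.5 and 11.5 to 46.5 FPKM. In replicates 2 and 3 they were at 184.8 and 258 FPKM (Cyp4a10) and at 193 and 344 FPKM (Cyp4a14), so that, among the 6 libraries, these PPARA targets were highest in those with Xist, which was not so for Acot1. No gene was called (limma) among 37 of cholesterol and fatty acid synthesis (median 0.11, 1 higher and 1 lower at an unadjusted p under 0.05), 32 of gluconeogenesis and the urea cycle (0.06, 2 higher) or 30 of bile acid handling (-0.17, 4 higher and 4 lower). Pck1, the rate-limiting enzyme of gluconeogenesis, was at 920.3, 1636 and 1735 FPKM against 1132, 836 and 974 FPKM (log2 difference 0.50, limma adjusted p = 0.552).

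Of 31 nuclear-encoded subunits of oxidative phosphorylation, 28 lay above 0, against 41.5% of all genes, but the median was only 0.14, 1 was higher at an unadjusted p under 0.05, and none passed the test (limma). Atp5b, the beta subunit of ATP synthase, was at 992, 946 and 998 FPKM against 929, 909 and 694 FPKM (log2 difference 0.22, limma adjusted p = 0.708). Heat shock proteins were above 0 in 12 of 15, with a median of 0.40, 6 higher and 1 lower at an unadjusted p under 0.05 (against 4.51% and 7.69% of all genes) and no call (limma). Replicate 1 had a median of 0.08 and replicates 2 and 3 of 0.37 and 0.48. Hspa8, the constitutive HSC70 chaperone, was at 400.2, 646 and 591 FPKM against 402, 413 and 328 FPKM (log2 difference 0.50, limma adjusted p = 0.387), with replicate 1 inside the knockout range.

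Genes of drug metabolism gave 3 calls among 50, against 0.838% of all genes, of which Gclc, described above, held. At an unadjusted p under 0.05, 19 were higher and 6 lower, against 4.51% and 7.69% of all genes, and the median was 0.26. Sult1a1, a phenol sulfotransferase, was at 204, 393 and 415 FPKM against 131, 204.4 and 110.1 FPKM, so replicate 1 was level with the highest knockout (log2 difference 1.16, limma adjusted p = 0.0771). Cyp2a5, a coumarin hydroxylase, was at 1407, 1426 and 2253 FPKM against 1077, 661 and 595 FPKM, clear of the knockouts in all 3 libraries, but did not pass the test (log2 difference 1.14, limma adjusted p = 0.131). Cyp2b10, the standard target of the receptor CAR, was at 5.41 FPKM in replicate 1, within the knockout range of 4.88 to 5.76 FPKM, and at 24.6 and 22.97 FPKM in replicates 2 and 3. Cyp2a5 and Cyp2b10 were named after their values were seen.

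The 4 MHC class II genes tested were all above 0, all higher at an unadjusted p under 0.05 and all without overlap, against 5.15% of all genes, with a median of 0.85, and the 17 class I genes had a median of 0.00. A difference between the classes was not tested. H2-Aa was at 16.7, 9.26 and 11.7 FPKM against 7.94, 5.33 and 5.45 FPKM (log2 difference 0.89, limma adjusted p = 0.066). Cd74, the invariant chain that escorts class II molecules, was at 20.9, 23.04 and 25.3 FPKM against 14.7, 9.07 and 11.2 FPKM (log2 difference 0.95, limma adjusted p = 0.0809). No gene of the list passed the test (limma, 0 of 21). At an unadjusted p under 0.05, 5 were higher and 1 lower, against 4.51% and 7.69% of all genes. B2m, the light chain of class I, was at 1644, 2010 and 2098 FPKM against 2368, 2250 and 2103 FPKM (log2 difference -0.23, limma adjusted p = 0.761).

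Markers of cells that carry class II were recorded beside these values. Of 14 Kupffer cell and macrophage markers, 12 lay above 0, against 41.5% of all genes. At an unadjusted p under 0.05, 4 were higher, against 4.51% of all genes. None was called (limma), and the median was 0.31. The summed FPKM of these markers was 72.9, 72.9 and 58.2 in RIPK1 D138N and 55.7, 35.8 and 43.5 in TNFR1/2 KO. The sums did not overlap, as was so for 17.1% of single genes tested. The part of these markers in the class II values was not tested. Lyz2, the myeloid lysozyme, was at 25.7, 21.6 and 8.13 FPKM against 12.6, 3.05 and 3.29 FPKM (log2 difference 1.51, limma adjusted p = 0.263), with replicate 3 inside the knockout range. Of the 3 B and plasma cell markers none was called (limma) and 1 was higher at an unadjusted p under 0.05, with Igkc, the kappa light chain, at 35.6, 50.3 and 56.9 FPKM against 44.4, 35.7 and 32.9 FPKM. Iglv1, an immunoglobulin lambda segment outside the list, was called and held, at 5.6, 7.32 and 6.39 FPKM against 2.54, 2.58 and 1.83 FPKM (log2 difference 1.17, SE 0.225, limma adjusted p = 0.0334). Neutrophil markers varied far more between libraries than between genotypes, with sums of 139, 225 and 4.74 FPKM against 188, 27.6 and 12.4 FPKM. S100a9, a calcium-binding protein of neutrophils, was at 93.7, 104 and 2.61 FPKM against 87.2, 17.4 and 7.85 FPKM (log2 difference 0.44, limma adjusted p = 0.945).

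The 10 called genes that did not hold in replicate 1 included genes known for sex-dependent expression in mouse liver. Fmo2, a flavin monooxygenase, was at 4.17 FPKM in replicate 1 but 12.7 and 13.9 FPKM in replicates 2 and 3, against 2.03, 2.11 and 2.59 FPKM in TNFR1/2 KO. Cyp2c38 and Cyp2c68, cytochromes P450 of a family with near-identical copies, were at 5.98 and 82.2 FPKM in replicate 1, near the knockout ranges of 2.77 to 3.46 and 44.6 to 63.5 FPKM. They reached 28.7 and 29.9 FPKM (Cyp2c38) and 272 and 256 FPKM (Cyp2c68) in replicates 2 and 3. Mup9, a major urinary protein, fell to 2.19 and 3.52 FPKM in replicates 2 and 3 but was at 59.7 FPKM in replicate 1, against 115 to 192 FPKM in the knockouts. Egfr, the EGF receptor, was at 47.1, 21.4 and 16.7 FPKM against 74.2, 58.0 and 79.8 FPKM, and Lrg1, a secreted acute-phase glycoprotein, at 328, 135 and 164 FPKM against 423, 569 and 546 FPKM. For all 10 genes replicate 1 lay outside the knockout range on the same side, but at less than 0.5 times the group difference.

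The sex-biased lists showed the same division. Over 18 female-biased genes the median log2 difference was 2.64, but it was 0.13 in replicate 1 and 3.56 and 3.77 in replicates 2 and 3. Over 24 male-biased genes it was -1.48, with -0.04 in replicate 1 and -2.13 and -2.25 in the others. Cyp2c69, a female-specific steroid-metabolising P450, was at 1.41 FPKM in replicate 1 and at 310 and 266 FPKM in replicates 2 and 3, against 1.18 to 2.78 FPKM in the knockouts. Hsd3b5, a male-specific dehydrogenase, was at 74.9, 0.960 and 0.570 FPKM against 64.7 to 89.5 FPKM. Both genes were named after their values were seen.

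With replicate 1 left out, 571 genes (4.88%) were called (limma), 260 higher and 311 lower. Replicate 1 lay outside the knockout range on the same side for 276 of them (48.3%), namely 103 of the higher (39.6%) and 173 of the lower (55.6%), and outside it on the opposite side for 61 (10.7%). Among the 11123 genes not called by that fit, the corresponding shares were 37.9% and 20.6%. A single library often falls outside a range of 3. The same 3 knockout libraries also entered the calls and set the range, which favors the same side. The side of replicate 1 is therefore not an independent check of these calls. The share matched by replicate 1 was larger for genes called lower than for genes called higher. Values leaned low in general: 58.5% of all genes tested lay below 0, and the median of replicate 1 was -0.10. No share by direction was taken among the genes not called, and the difference in shares was not tested, so nothing is read from it.

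The genes that held were placed against the contrast of WT with Sham. It shares no library with the mutants, but both contrasts used the same spread per gene over the 12 libraries. Genes with a small spread are called more readily in both, so the shares are not independent of how the genes were chosen. The summed FPKM also differed between WT and Sham, as given above, and was not adjusted for. Of the 61 lower in RIPK1 D138N, 26 (42.6%) were higher in WT than in Sham and 19 (31.1%) lower (limma), against 16.3% and 42.0% of all genes tested. Of the 27 higher in RIPK1 D138N, 3 (11.1%) were higher in WT than in Sham and 14 (51.9%) lower. Rsad2 and Dusp5 were examples of genes higher in WT than in Sham and lower in RIPK1 D138N than in TNFR1/2 KO. Nnmt was an example of the reverse.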

How the data were processed

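Gene expression was measured by RNA-seq of total RNA from mouse liver, prepared with Trizol and NEB RNA Ultra per the labels' protocols. The authors deposited 1 table of FPKM values per gene and library. STAR 2.5.4a, Cufflinks 2.2.1, Cuffdiff and build mm10 are named in the submitters' processing notes, and strand settings are not given in the sources used here. Mutant columns were matched to numbered replicates; WT and Sham columns could be matched to a group alone. Gene positions were taken from GENCODE M21 by identifier, which matched 53616 of 53796 genes (99.7%).

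From these values, log2(FPKM + 1) was fitted with limma 3.58.1 in R 4.3.3 (trended variance, 4 group means over the 12 libraries) for the 11728 genes at 1 FPKM or more in at least 3 libraries, with Benjamini-Hochberg adjustment over all of them and calls at an adjusted p under 0.05. Of the 11728, 1444 had an unadjusted p under 0.05. Possible failed estimates were set aside after the fit, which left the 11694 genes used for counts. FPKM carries no counts, but low values fell on fragment steps that put the depth of the 6 libraries at 0.855 to 1.53 times that of TNFR1/2 KO replicate 1. Alternatives changed the pseudocount, the filter, the scaling, the libraries in the fit and a block for the replicate number, and left out each library in turn.

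The gene lists and the rules for named genes were chosen with earlier results of these data known. Named genes were the 12 largest differences in each direction that held in replicate 1 at a group mean of 5 FPKM or more, leaving out predicted names and names of pseudogene copies, up to 6 in each direction that did not hold, called list members, and for lists with none called the most abundant members. Some genes picked by these rules are not described. They are Rnf125, which held, Gstt3, Itpkc, Cyp2u1 and Tgif1, which did not, and some abundant list members. Any gene named outside these rules was chosen after its values were seen.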

Additional observations from a re-analysis of the deposited data

How the results depend on the processing

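Against 41 genes higher and 68 lower, of which 27 and 61 held in replicate 1, no filter on low values gave 27 higher and 33 lower (32 of these held), and median-of-ratios scaling gave 42 lower (40 held). With the 6 mutant libraries alone the counts were 9 higher (1 held) and 11 lower (10 held). With the replicate number as a block they were 7 higher (0 held) and 4 lower (4 held). The number does not pair the samples: deviations of equal-numbered libraries correlated at -0.08, -0.20 and 0.06, and 1 of the 6 libraries correlated best with its own number. Without RIPK1 D138N replicates 2 and 3, 8 genes were lower (7 held). Leaving out 1 library gave 15 to 273 higher (6 to 45 held) and 11 to 315 lower (10 to 81 held), and 101 to 417 in place of the 276 genes called without replicate 1 that it shares. The 88 held genes kept their direction in every setting, and none of the 39 named genes that were called reversed. The groups did not overlap for these genes, so leaving out libraries could not reverse them, and nothing is read from this. Named genes that were not called were not followed. Calls are limited by 3 libraries a group, by FPKM without counts, and by the coarse steps of low values.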

Other observations

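The share of held genes was highest on chromosome 3, which was picked after the chromosomes were ranked. It had 12 held genes of 583 tested (2.06%), 4 higher and 8 lower. Over all genes tested, 0.231% held higher and 0.522% held lower. The next highest shares were 1.39% on chromosome 9 and 1.37% on chromosome 13. The spread over chromosomes was not tested. The 12 genes lay between 58.4 and 98.7 Mb. They included Mme, Ecm1 and Lrat, which were higher, and Asic5, Cd1d2, Hsd3b2, Car14 and Tuft1, which were lower. Asic5 and Gucy1b1, a subunit of the nitric oxide receptor, are 10.8 kb apart and differed in opposite directions, by -2.91 and 0.86 on the log2 scale.

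Replicate 1 of RIPK1 D138N had several platelet transcripts at levels that no other mutant library reached. Ppbp, a platelet chemokine, was at 21.7 FPKM there, 0.225 and 1 FPKM in replicates 2 and 3, and 0.360 to 1.05 FPKM in TNFR1/2 KO. Pf4, platelet factor 4, was at 32.1 FPKM, against 1.70 and 1.17 FPKM in the other 2 replicates and 1.22 to 1.90 FPKM in TNFR1/2 KO. Tmsb4x, thymosin beta 4, was at 473 FPKM, against 101.5 and 115.5 FPKM and 48.1 to 89.0 FPKM. Nrgn was at 24.2 FPKM in replicate 1 and at most 1.35 FPKM in any other mutant library, and Tubb1 at 3.22 against at most 0.341 FPKM. Itga2b, Gp9, Gp1bb, Treml1, Clec1b, Rgs10, Gng11, Myl9 and Plek were also highest in replicate 1. Among the platelet genes followed, Gp1ba and Vwf did not stand apart. Gp1ba was at 0.242 FPKM in replicate 1 and 0.245 in replicate 3, and Vwf at 7.24 FPKM in replicate 1 and 6.96 in TNFR1/2 KO replicate 1. All these platelet genes were chosen after the values were seen. With replicate 1 as the only RIPK1 D138N library, 25 genes were called by limma (0.214%), 18 higher and 7 lower, of which 9 were also called with all 3 replicates.

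Hamp, encoding the iron hormone hepcidin, separated the TNFR1/2 KO libraries from one another. It was at 104, 2140 and 236 FPKM in these and at 1965, 2195 and 1737 FPKM in RIPK1 D138N (log2 difference 2.38, limma adjusted p = 0.233). None of 16 iron and heme genes was called by limma, with 3 higher and 2 lower at an unadjusted p under 0.05 and a median of -0.05. At that level 4.51% of all genes were higher and 7.69% lower, shares that also apply to the lists below. Among 35 acute-phase genes none was called by limma, with 3 higher and 8 lower at an unadjusted p under 0.05 and a median of -0.33. Hp, haptoglobin, was at 3892 FPKM in replicate 1, within the knockout range of 3624 to 5222 FPKM, and at 1658 and 1765 FPKM in replicates 2 and 3. Among 35 genes of hypoxia and glycolysis none was called by limma, with 3 higher and 8 lower at an unadjusted p under 0.05 and a median of -0.16. Bhlhe40, a hypoxia-induced repressor that also acts in the clock, was even at 44.9, 44.6 and 44.3 FPKM in RIPK1 D138N and at 79.1, 95.2 and 110 FPKM in TNFR1/2 KO (log2 difference -1.06, limma adjusted p = 0.0662). Sox9, a transcription factor of bile duct cells, was at 4.29, 1.25 and 2.17 FPKM against 9.13, 8.54 and 6.66 FPKM (log2 difference -1.43, limma adjusted p = 0.0651), while Krt19, a keratin of the same cells, was at 14.0, 1.31 and 5.602 FPKM against 0.743, 2.35 and 0.748 FPKM. Hamp, Hp, Bhlhe40, Sox9 and Krt19 were singled out after their values were seen.

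In the remaining lists limma made no call, other than Hist1h2al of the histone genes, set aside as a possible failed estimate. Of all genes tested, 4.51% were higher and 7.69% lower at an unadjusted p under 0.05. The median log2 difference was 0.04 over 28 chemokines and cytokines (3 higher and 2 lower at an unadjusted p under 0.05) and -0.09 over 30 ATF4 and ER stress genes (0 and 4). It was 0.53 over 3 T and NK cell markers (2 and 0), 0.30 over 7 neutrophil markers (0 and 0) and 0.52 over 5 cholangiocyte markers (2 and 2). It was -0.14 over 7 erythroid and blood markers (0 and 1), which include the platelet genes Pf4 and Ppbp. It was 0.15 over 5 proliferation genes (0 and 2) and -0.14 over 8 histone genes (0 and 0). Cxcl12, a chemokine of stromal cells, was at 66.5, 112 and 107 FPKM against 50.4, 53.4 and 53.7 FPKM, above the knockouts in all 3 RIPK1 D138N libraries (log2 difference 0.81, limma adjusted p = 0.0833). In the growth hormone and IGF axis, Egfr was the only call among 17 and did not hold.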
